A study of Arabidopsis thaliana with 23 samples.

Results

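Of the 12065 H4ac peaks called in untreated wild type (WT) replicate 1, 492 (4.08%) carried both histone marks and are described here. They were selected on 3 peak lists of untreated WT: a peak of H4ac replicate 1 was taken when it overlapped, by 1 bp or more, a peak of H4ac replicate 2 and a peak of H3K27me3 replicate 2. The presence of a peak in those 3 lists therefore chose the regions and is given only as a description. The comparison set was the 10570 H4ac peaks shared by both WT replicates that touched no H3K27me3 peak, out of 11062 shared H4ac regions in all.

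H4ac is acetylation of the histone H4 tail, which sits just downstream of the start of transcribed plant genes and is removed by histone deacetylases such as HDA6. H3K27me3 is trimethylation of lysine 27 of histone H3, laid down by Polycomb repressive complexes over the body of genes that are held silent, among them many regulators of development and stress responses. Both marks are usually found on different genes, and a region with both can hold them on the same nucleosomes or in different cells of the seedling.

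The experiment measured both marks by ChIP-Seq in whole 12-day-old Arabidopsis seedlings after 3 h on plates. The 4 conditions were WT on 50 µM methyl jasmonate (WT +MeJA), the mutant *axe1-5* on plates without MeJA, *axe1-5* on 50 µM MeJA (*axe1-5* +MeJA), and untreated WT. The WT was the DR5 line in the Col-0 background, and *axe1-5* is 1 mutant allele of HDA6 with DR5 as its corresponding wild type. There were 2 libraries per mark and condition, except that 1 H3K27me3 library of WT +MeJA (replicate 2) was analysed. Because whole seedlings were pooled, 2 marks on the same chromatin and 2 marks in different cells cannot be told apart, and neither can fewer marked cells and less mark per cell.

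The libraries differed in depth, above all for H3K27me3. H4ac libraries kept 3235473 to 14717755 tags after removal of duplicates and gave 12065 to 15727 peaks. H3K27me3 libraries kept 577986 tags in WT +MeJA, against 1976886 and 8681380 in untreated WT. The H3K27me3 lists of *axe1-5* replicate 1 and *axe1-5* +MeJA replicate 2 had median peak lengths of 2911 and 2202 bp, against 170 to 717 bp in the other 5. The fragment length modelled in peak calling was 282 and 209 bp in those 2 lists, against 52 to 61 bp in the other 5. It was 54 bp for H3K27me3 WT replicate 2, which the rule used, and 313 bp for H4ac WT replicate 1. As a check of the tissue, 2 of 8 leaf and photosynthesis genes and 2 of 5 root genes had an H4ac summit in both WT libraries, whereas 0 of 5 flower organ genes and 0 of 7 seed storage genes did. H3K27me3 summits of WT replicate 2 lay in 0 of the 8 leaf and photosynthesis genes, 3 of the 5 root genes (PHT1;1, NRT2.1 and SHR), 5 of the 5 flower organ genes and 6 of the 7 seed storage genes, so more of the root genes carried H3K27me3 than H4ac.

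The regions fell into 2 main layouts. In 186 regions (37.8%) the H4ac summit and the H3K27me3 summit, the positions of highest tag density, lay in the same gene. In 247 regions (50.2%) they lay in 2 different genes, most often neighbours. In the remaining 59 regions, 46 had the H3K27me3 summit and 13 had the H4ac summit outside annotated genes. The same-gene layout was more frequent, 53.9%, among the 141 regions in which the H3K27me3 summit of WT replicate 1 could be used instead. It was 91.7% among the 144 regions in which the H4ac summit lay inside the H3K27me3 peak.

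Sequences at the acetylation summit are shown for 10 of the same-gene regions, because the G-box CACGTG, a motif bound by bHLH factors such as MYC2 of the jasmonate pathway, was found near the H4ac summit more often in these than in the other layouts. Each sequence has 60 bases of the coding strand of the gene around the G-box nearest the H4ac summit (TAIR10.1, RefSeq), with every G-box in capitals, and none of them includes an annotated untranslated base. The genes were chosen after the motif matches had been seen, as regulators, hormone genes and enzymes of specialised metabolism.
TCP15 (chr1:26216660-26216719, + strand): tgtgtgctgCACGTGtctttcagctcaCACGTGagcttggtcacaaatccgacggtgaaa
TCP10 (chr2:13221913-13221972, - strand): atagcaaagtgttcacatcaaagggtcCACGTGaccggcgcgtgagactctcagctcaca
SHR (chr4:17692322-17692381, + strand): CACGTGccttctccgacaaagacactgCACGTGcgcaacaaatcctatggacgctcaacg
BLH4 (chr2:10112266-10112325, - strand): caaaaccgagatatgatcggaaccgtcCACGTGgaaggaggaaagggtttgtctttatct
SOB3 (chr1:28705725-28705784, + strand): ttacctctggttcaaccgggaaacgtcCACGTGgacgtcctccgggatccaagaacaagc
GIK (chr2:14857232-14857291, + strand): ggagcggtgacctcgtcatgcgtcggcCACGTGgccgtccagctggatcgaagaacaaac
AT4G17800 (chr4:9896145-9896204, - strand): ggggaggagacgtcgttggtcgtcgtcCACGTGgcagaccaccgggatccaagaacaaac
CYP94C1 (chr2:11809702-11809761, + strand): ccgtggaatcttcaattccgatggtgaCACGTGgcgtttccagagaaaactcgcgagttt
CYP79B2 (chr4:18527151-18527210, + strand): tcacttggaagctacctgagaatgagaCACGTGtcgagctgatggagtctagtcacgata
PYL6 (chr2:16845504-16845563, - strand): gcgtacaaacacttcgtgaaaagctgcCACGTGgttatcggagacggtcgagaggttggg

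A G-box lay within 150 bases on either side of the H4ac summit in 25 of 186 same-gene regions (13.4%, 95% Wilson interval 9.27 to 19.1%), against 2 of 247 different-gene regions (0.81%) and 286 of 10570 other H4ac regions (2.71%). Around H3K27me3 summits it lay in 9.68% of same-gene regions, against 5.34% of the 6499 H3K27me3 peaks that touched none of the regions, so it was also more frequent at H3K27me3 peaks elsewhere than at the other H4ac regions. At SHR, which encodes a root patterning factor, the motif lay at the summit itself, and at the abscisic acid receptor gene PYL6 it lay 4 bp away. The H4ac summit lay in a coding exon at 24 of the 25 genes. In the test of H4ac changes given below, 23 of the 25 could be tested. None of them passed in WT +MeJA against WT, where 0.0438% of all regions tested did. Their median log2 change was 0.037, against 0.019 over the 164 same-gene regions tested. The median GC content of the windows was 48.5% in same-gene regions, 43.2% in different-gene regions and 43.2% in the other H4ac regions, and its part in the motif count was not tested. The 3 AT-hook genes shown, SOB3, GIK and AT4G17800, are paralogs, and their 60-base windows were identical at 36 of 60 positions for SOB3 and GIK, 35 for SOB3 and AT4G17800, and 46 for GIK and AT4G17800, so these sites are not independent.

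Around the H4ac summit, the other motifs searched were less frequent than in the other H4ac regions. The telobox AAACCCTA, or its reverse complement TAGGGTTT, a motif linked to recruitment of Polycomb complexes in Arabidopsis, lay within 150 bases of the H4ac summit in 10.4% of the 492 regions, against 13.1% of the other H4ac regions. It was least frequent in the same-gene layout, with 6.99% (95% Wilson interval 4.13 to 11.6%), against 12.6% in different-gene regions. The GAGA motif, GAGAGA or TCTCTC, lay there in 43.5% of the 492 regions, 40.9% of the same-gene and 45.7% of the different-gene regions, against 48.4% of the other H4ac regions. Around the H3K27me3 summit the direction was the other way. The telobox lay there in 8.13% of the 492 regions and 9.14% of the same-gene regions, against 6.4% of H3K27me3 peaks that touched none of the regions. For the GAGA motif these shares were 32.7, 34.4 and 26.9%. All are matches of letters in a window and not measured binding.

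Summits lay close together in the same-gene layout. The layouts were defined by the genes that hold the 2 summits, so a shorter distance there follows in part from the definition. The median distance between the H4ac and H3K27me3 summits was 979 bp over the 492 regions (quartiles 504 and 1332 bp), with a range of 5 to 6454 bp. It was 278.5 bp in the same-gene regions, of which 121 of 186 (65.1%) had summits within 500 bp, and 1207 bp in the different-gene regions, of which 1 of 247 did. At TCP15, which encodes a class I TCP factor of growth control, the summits were 5 bp apart, and at the AT-hook gene AHL20 they were 11 bp apart. In different-gene regions the H3K27me3 summit was upstream of the start of the gene with H4ac in 218 of 247 cases, and the 2 genes ran in the same direction in 142, diverged in 89 and converged in 16.

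**Figure D1:**
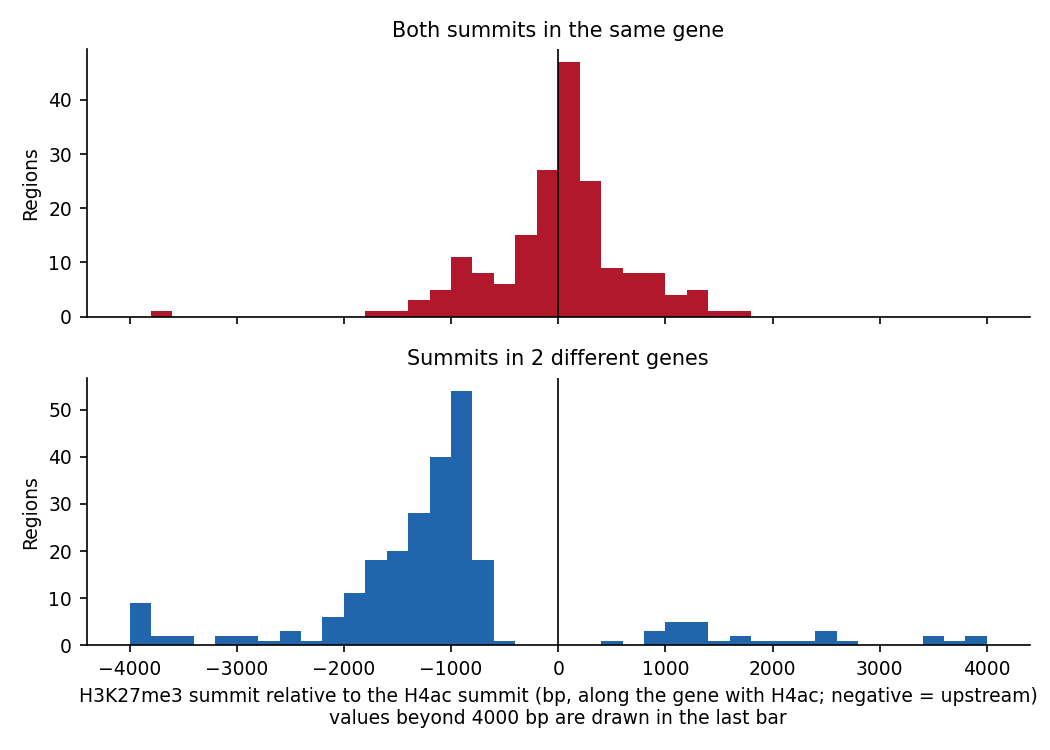
Number of regions by the distance in bp of the H3K27me3 summit from the H4ac summit, read along the gene that holds the H4ac summit (negative values are upstream), for the 186 same-gene regions (top) and the 247 different-gene regions (bottom). The same-gene distances pile up around 0, with a median size of 278.5 bp, and the different-gene distances lie mostly upstream, with a median size of 1207 bp.

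The overlap itself was short in most regions. Overlaps, peak lengths and summit distances were read from lists that differed in modelled fragment length, whose part in them was not tested. The median of the longest overlap with 1 peak was 377 bp, and together the peaks covered a median of 18.6% of the H4ac peak. By layout of the peaks, 317 regions overlapped in part, by any length, with neither peak inside the other. Another 172 had the H3K27me3 peak inside the H4ac peak, and 3 had the H4ac peak inside the H3K27me3 peak. Those 3 were all AT-hook genes: AHL19, AHL22 and AT4G12050. The H4ac peaks had a median length of 1838.5 bp, against 1871 bp in the other H4ac regions. The H3K27me3 peaks that touched them were longer than the rest of that list, with a median of 887 bp over 524 peaks against 700 bp over 6499 peaks.

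The rule has a threshold of 1 bp, and regions lay close to it on both sides. The 3 shortest overlaps were 1 bp at AT2G31670, 2 bp at AT1G12800 and 4 bp at AT4G09920. Their H3K27me3 fold enrichment over input was 16.7, 9.47 and 9.90. Just outside, the H4ac peaks at ATNTH1, PEX22 and AT1G52670 ended 3, 4 and 12 bp from an H3K27me3 peak, and 65 regions inside had an overlap under 100 bp while 71 regions outside had a gap under 100 bp. The longest overlaps were 2979 bp at AT1G14580, a C2H2 zinc finger gene, 2360 bp at RLP38, a receptor-like protein gene, and 2017 bp at AHL22.

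The levels of the marks also differed between the layouts. The median H4ac fold enrichment in WT replicates 1 and 2 was 4.96 and 5.24 in same-gene regions, 6.34 and 7.54 in different-gene regions, and 6.08 and 7.17 in the other H4ac regions. Genes that carried both summits were thus the least acetylated of the 3 classes in both libraries. The median H3K27me3 fold enrichment in WT replicate 2 was 10.1 in same-gene and 11.6 in different-gene regions. The H4ac summit was a median of 672.5 bp from the annotated gene start in same-gene regions, against 304 bp in different-gene regions and 345 bp in the other H4ac regions.

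**Figure D2:**
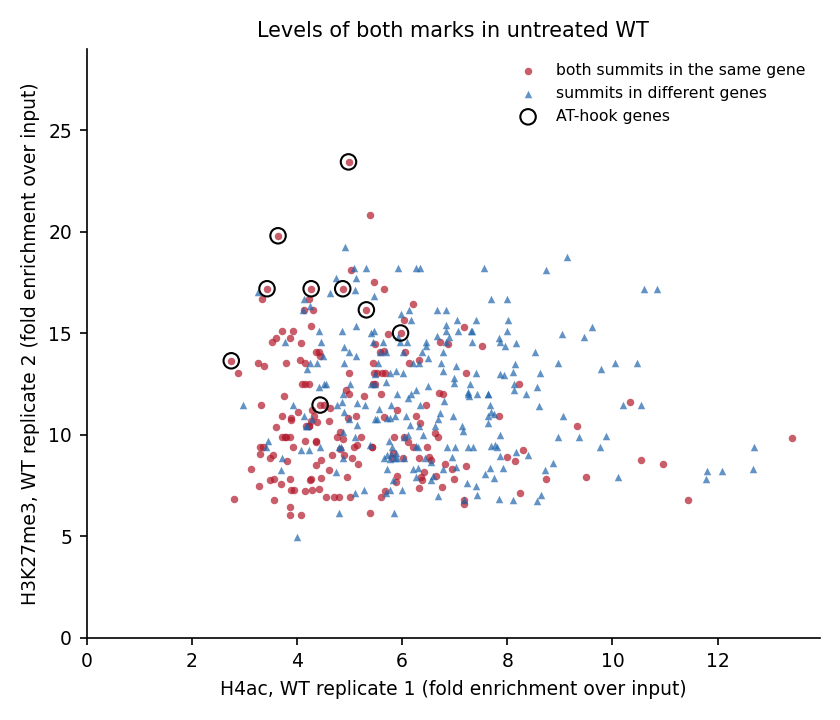
H4ac fold enrichment in WT replicate 1 against H3K27me3 fold enrichment in WT replicate 2, both over input, with 1 point for each of the 186 same-gene and 247 different-gene regions (circles, both summits in the same gene; triangles, summits in different genes; open rings, the 9 AT-hook genes). The AT-hook genes sit at 2.75 to 5.97 for H4ac and 11.5 to 23.45 for H3K27me3, to the left of most different-gene regions.

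Transcription factor genes were concentrated in the same-gene layout. Of its 175 protein-coding genes, 47 (26.9%) belonged to 9 factor families recognised from their annotation, against 1 of 238 H4ac genes (0.42%) and 6.61% of 227 H3K27me3 genes in the different-gene regions. Among other genes with an H3K27me3 summit in WT replicate 2 the share was 9.21% of 3432, and among other genes with H4ac it was 2.21% of 10125. The families were chosen after the gene names had been seen, so these shares are descriptions. Ribosomal protein genes, which are broadly expressed, were 0 of the 175 same-gene loci but 2.1% of the H4ac genes in the different-gene regions, against 1.88% of the other H4ac genes.

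**Figure D3:**
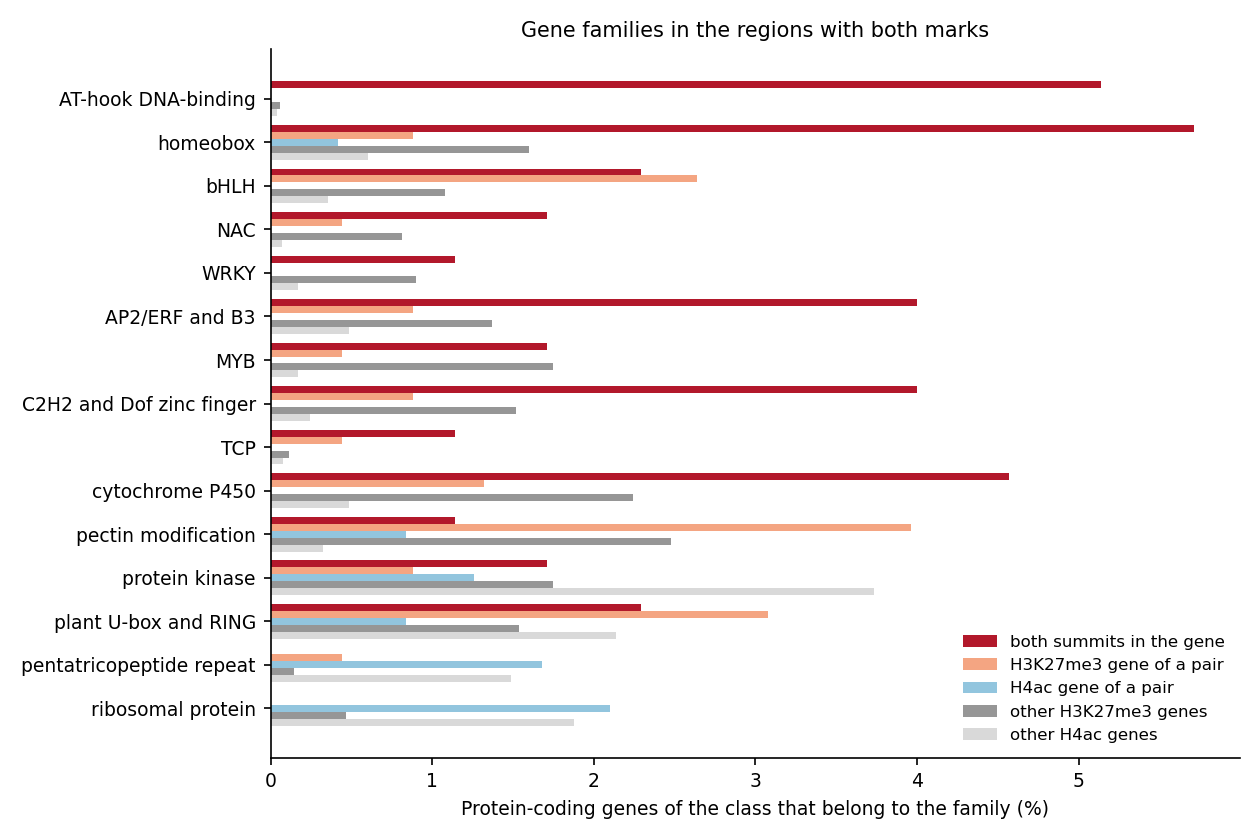
Share of protein-coding genes, in percent, that belong to each of 15 annotated families, in genes with both summits (175), H3K27me3 genes of a different-gene pair (227), H4ac genes of such a pair (238), other H3K27me3 genes (3432) and other H4ac genes (10125). Genes matched as AT-hook by the text of their annotation make up 5.14% of genes with both summits and less than 1% of every other class.

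AT-hook genes formed a compact group. They encode AT-hook motif nuclear-localised (AHL) proteins, which bind AT-rich DNA, and SOB3 and ESC are known to restrain hypocotyl elongation. Of 16 genes matched by the text of their annotated product or symbol, 9 had both summits: AHL19, AHL20, AHL22, ESC, GIK, SOB3, AT4G12050, AT4G17800 and AT4G22810. Family members annotated in other words were not counted. Their overlaps ran from 1175 to 2017 bp, and covered a median of 95.9% of the H4ac peak.

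All 9 AT-hook genes had an H3K27me3 peak in each of the 6 other H3K27me3 libraries, which the selection did not use, against 39 of all 492 regions (7.93%) and 12 of 139 genes with both summits outside the 9 factor families (8.63%). Over the 9 factor families together, AT-hook genes included, it was 16 of 47 genes with both summits (34.0%). H3K27me3 fold enrichment at the 9 AT-hook genes had a median of 29.2 in WT +MeJA, of 11.03 and 17.7 in the *axe1-5* pair, of 8.98 and 9.92 in the *axe1-5* +MeJA pair, and of 13.8 and 17.2 in untreated WT. AHL19 had the highest H3K27me3 value of the 492 regions in WT replicate 2, 23.45, and SOB3 had 19.8. H4ac at the 9 AT-hook genes was low but present, with medians of 5.51 and 7.21 in the WT +MeJA pair of libraries, 5.18 and 7.80 in the *axe1-5* pair, 8.44 and 9.45 in the *axe1-5* +MeJA pair, and 4.44 and 4.57 in the untreated WT pair. AHL22 had no H4ac peak in WT +MeJA replicate 2, and the other 8 genes had an H4ac peak in all 8 libraries.

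Developmental regulators were a second group. Of 72 matched genes on a list of such regulators, 15 had a shared H4ac region in WT. Of these, 4 (26.7%) were regions with both marks, against 4.45% of all shared H4ac regions: KAN2, PLT2, SHR and TCP10, all with both summits. SHR (SHORT-ROOT) encodes a GRAS factor of root radial patterning. Its H4ac peak (chromosome 4, 17691605 to 17693668) had a fold enrichment of 5.54 and 7.02 in the WT +MeJA pair of libraries, 3.47 and 5.54 in the *axe1-5* pair, 8.61 and 8.86 in the *axe1-5* +MeJA pair, and 3.34 and 4.24 in the untreated WT pair. Its H3K27me3 fold enrichment was 41.4 in the 1 WT +MeJA library, 12.6 and 17.0 in the *axe1-5* pair, 12.6 and 10.4 in the *axe1-5* +MeJA pair, and 15.4 and 16.7 in the untreated WT pair. SHR thus carried peaks of both marks in all 15 libraries.

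PLT2, an AP2 factor of the root stem cell niche, had H4ac in all 8 libraries and H3K27me3 in every library but WT +MeJA. KAN2, which specifies the abaxial side of lateral organs, had H4ac of 2.87 and 5.02 in untreated WT and no H4ac peak in either *axe1-5* library, although both *axe1-5* +MeJA libraries had one, at 9.5 and 7.93. TCP10, a factor of leaf development, had an H3K27me3 fold enrichment of 7.33 in WT replicate 2 and no peak in WT replicate 1. For 2 more listed genes, CUC2 and YAB3, only the H3K27me3 summit lay in the gene, and the H4ac summit lay in the neighbour.

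Jasmonate genes were few in number. Of 50 matched genes of the jasmonate pathway, 22 had a shared H4ac region and 3 (13.6%) were regions with both marks, against 4.45% of all shared H4ac regions. JAZ10, a repressor of the jasmonate response, had H4ac of 8.55 and 10.7 in the WT +MeJA pair of libraries, 3.52 and 6.46 in the *axe1-5* pair, 5.35 and 8.03 in the *axe1-5* +MeJA pair, and 3.30 and 3.72 in the untreated WT pair. Both WT +MeJA values were above every value of the other conditions. Relative to the library medians the difference of WT +MeJA from untreated WT was 0.77 ± 0.19 on the log2 scale (SE, n = 2 each) and did not pass (limma, adjusted p = 0.20). Its H3K27me3 peak was found in WT replicate 2 (9.05), in *axe1-5* replicate 1 (5.26) and in both *axe1-5* +MeJA libraries (4.65 and 5.03), and in neither WT +MeJA replicate 2 nor WT replicate 1.

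CYP94C1, which encodes an enzyme that oxidises the hormone jasmonoyl-isoleucine, had H4ac of 8.14 and 8.28 in the WT +MeJA pair of libraries, 6.53 and 7.11 in the *axe1-5* pair, 8.06 and 8.46 in the *axe1-5* +MeJA pair, and 4.70 and 4.57 in the untreated WT pair. These are values as deposited, and library medians were 0.675 higher in WT +MeJA and 0.307 higher in *axe1-5* than in WT on the log2 scale. After centring, CYP94C1 was called in none of the H4ac comparisons. The H3K27me3 peak of CYP94C1, at 6.94 in WT replicate 2, appeared in no other library. AOC4, an allene oxide cyclase gene of jasmonate synthesis, was a different-gene region: the H3K27me3 summit lay in the zinc finger gene DOT5, 2161 bp downstream of the H4ac summit.

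The other lists had fewer members. Of 30 stress and hormone transcription factor genes with a shared H4ac region, WRKY48 and NAC3 (6.67%) were regions with both marks, and WRKY48 had H3K27me3 in all 7 libraries. IAA2, an auxin-responsive repressor, was 1 of 17 auxin and gibberellin genes, and CYP79B2, which makes indole-3-acetaldoxime for indole glucosinolates, was 1 of 11 genes of specialised metabolism. LHCA3, a photosystem I antenna gene, was 1 of 23 photosynthesis genes, and its H3K27me3 summit lay in the neighbour AT1G61540. None of the 5 circadian clock genes with shared H4ac was among the regions.

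The highest joint levels belonged to pairs of neighbours. Among the 12 regions with the highest joint rank of both marks, with H3K27me3 in both WT libraries, 11 were different-gene regions. At HAM2, which encodes a MYST histone acetyltransferase, H4ac was 7.96 and 14.1 in WT and the H3K27me3 summit, with 8.95 and 14.4, lay 2178 bp upstream in HEC3, a bHLH gene of gynoecium development. At the pectin methylesterase gene PME1, H4ac was 7.85 and 5.96 and H3K27me3, with 13.1 and 14.8, had its summit in the tandem copy PME2. Besides HAM2, PME1 and AT1G78810, the 12 included AT3G04160, AT5G03990, AT3G55600, AT1G20810, AT5G25990, ELC, AT4G10750, AT4G05650 and FOLT1. At AT1G78810, a gene of unknown function, H4ac was 9.45 and 10.4 and the H3K27me3 summit lay in the neighbour LSH7. Genes of pectin modification made up 3.96% of the H3K27me3 genes in different-gene regions, against 2.48% of other H3K27me3 genes.

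H4ac stayed called at most regions in the other conditions. In WT +MeJA both libraries had an H4ac peak at 480 of 492 regions (97.6%), against 99.1% of the other H4ac regions. Both *axe1-5* libraries had one at 463 regions (94.1%), against 92.3% of the others, and both *axe1-5* +MeJA libraries at 442 (89.8%), against 85.9% of the others. The share with an H4ac peak in all 8 libraries was 86.4% (425 regions), against 82.4% of the others. AT1G14580, the C2H2 gene with the longest overlap, and KAN2 were among the regions without an H4ac peak in *axe1-5*.

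H3K27me3 was recovered at very unequal rates. In WT +MeJA replicate 2 it was found at 70 regions (14.2%). In *axe1-5* it was found at 441 regions (89.6%) in replicate 1 and 165 (33.5%) in replicate 2, and in *axe1-5* +MeJA at 391 (79.5%) and 453 (92.1%). The other untreated WT library, replicate 1, had it at 141 regions (28.7%). The order followed the libraries more than the conditions: WT replicate 1, WT +MeJA and *axe1-5* replicate 2, the 3 lists with the lowest shares, were also the 3 with the fewest tags. The same order held when the H3K27me3 peaks of WT replicate 2 were counted, a different unit from the H4ac regions. Of the peaks that touched the regions, 28.6% were found in WT +MeJA, 90.1 and 54.6% by the *axe1-5* pair, 83.6 and 92.4% by the *axe1-5* +MeJA pair, and 47.3% by WT replicate 1. Of the peaks that touched none, the shares were 19.5% in WT +MeJA, 96.4 and 49.7% by the *axe1-5* pair, 86.6 and 96.9% by the *axe1-5* +MeJA pair, and 37.3% by WT replicate 1. Depth and condition cannot be told apart in these shares.

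**Figure D4:**
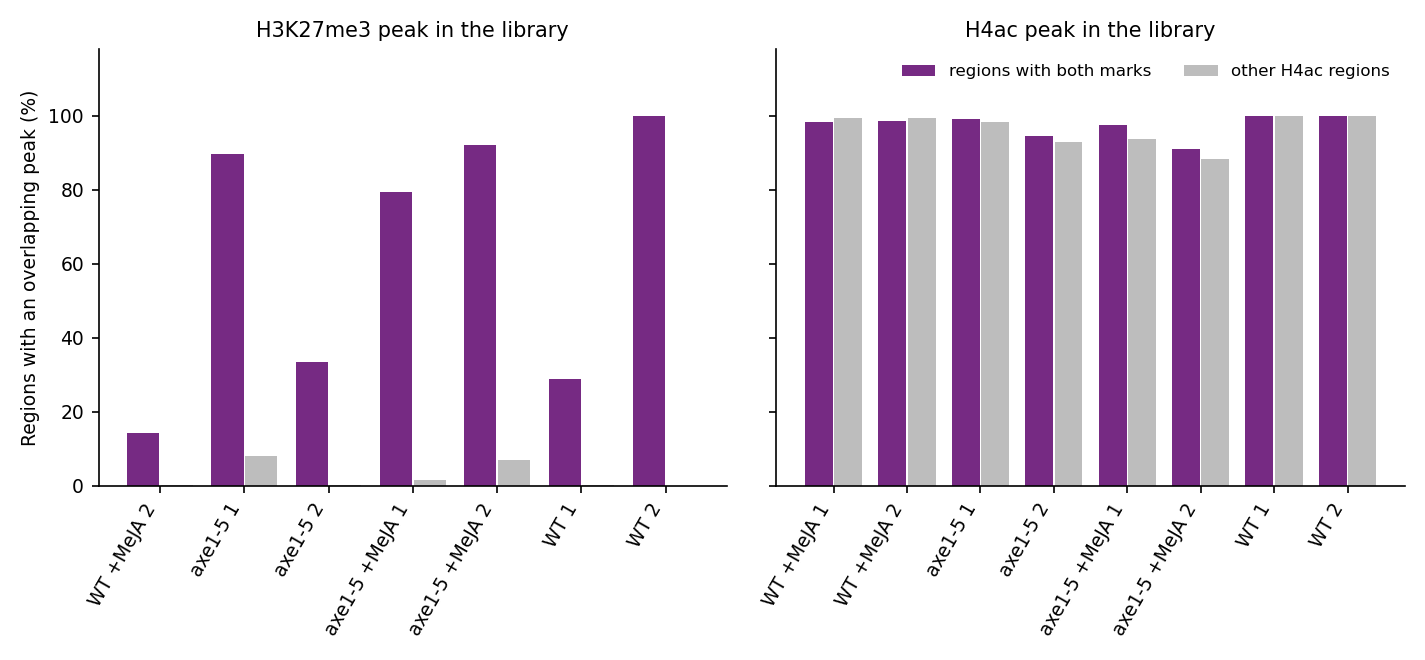
Share of regions, in percent, with an overlapping H3K27me3 peak (left) or H4ac peak (right) in each library, for the 492 regions with both marks and the 10570 other H4ac regions; WT 1 and WT 2 for H4ac and WT 2 for H3K27me3 were used to select the regions. H3K27me3 ranges from 14.2 to 92.1% in the 6 libraries not used for selection, and H4ac from 90.9 to 99.0% in its 6, for the regions with both marks.

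Recovery across libraries differed between the layouts. Of the 6 H3K27me3 libraries not used for selection, at least 3 had a peak at 389 of 492 regions (79.1%), while 23 regions had none. A peak in all 6 was found at 28 of 186 same-gene regions (15.1%) and 11 of 247 different-gene regions (4.45%), and a peak in none at 17 (9.14%) and 5 (2.02%). The same-gene layout therefore held both the most and the least recurrent H3K27me3. No H3K27me3 peak in any of the 4 *axe1-5* libraries was found at 25 regions, among them AGO3, CYP94C1, PDLP6 and XRCC4. These 25 include the 23 regions whose H3K27me3 peak was called in WT replicate 2 alone. Only AT1G66480, a gene of chloroplast movement (PMI2), had H3K27me3 in both WT libraries, at 11.8 and 8.74, and in no *axe1-5* library.

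Changes in H4ac were tested with limma on log2 fold enrichment centred on the median of each library, over the 9133 shared regions with a peak in all 8 libraries, 425 of them with both marks. In *axe1-5* against WT, 13 of the 425 regions (3.06%) rose and 0 fell at an adjusted p under 0.05, where 0.734% of all regions tested rose and 0.832% changed in either direction. The 13 rose 1.71-fold to 2.33-fold relative to the library median. The median change was 0.05 on the log2 scale over the 425 regions, against -0.01 over all regions tested. All 13 had low H4ac in WT: up to a mean WT fold enrichment of 5.77, 13 of 151 regions with both marks (8.61%) and 48 of 2136 other regions (2.25%) rose, and above it none of the regions with both marks did. The WT value enters both this split and the change itself, so low WT values favour rises: the median change of the other H4ac regions was 0.16 up to that bound and -0.15 among the regions with a WT fold enrichment above 8.28. The count rested on single libraries: it was 1 without *axe1-5* replicate 1, 4 without *axe1-5* replicate 2 and 4 without WT replicate 2. Without centring it was 6, and the replicates are 2 samples per group, so the p-values measure only the spread between these samples.

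AGO3, an Argonaute gene that encodes a small RNA-binding protein, rose the most. Its H4ac peak (chromosome 1, 11187668 to 11189664) had a fold enrichment of 14.3 and 17.9 in *axe1-5* and 5.17 and 5.96 in WT. In the MeJA libraries it had 14.1 and 17.4 in *axe1-5* +MeJA and 6.44 and 11.5 in WT +MeJA. Both genotypes thus kept apart on either plate, and the change in *axe1-5* was 1.22 ± 0.20 on the log2 scale (SE, n = 2 each, limma adjusted p = 0.00077). H3K27me3 at AGO3 was found in WT +MeJA, at 16.4, and in WT replicate 2, at 8.58, and in neither WT replicate 1 nor any *axe1-5* library. Both values were below the medians of their lists, 20.85 and 9.9.

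AT2G41360, a kelch repeat gene, had H4ac of 11.2 and 14.9 in *axe1-5*, against 4.37 and 4.86 in WT (log2 change 1.18 ± 0.19, limma adjusted p = 0.00077). Unlike AGO3 it had H3K27me3 in every library, at 10.5 and 14.2 in *axe1-5* and 10.5 and 14.1 in WT. AT5G19810, an extensin-like cell wall gene, had H4ac of 9.60 and 12.1 in *axe1-5*, against 4.18 and 3.88 in WT (1.11 ± 0.21, limma adjusted p = 0.0031). Its H3K27me3 peak was called in WT replicate 2 alone. PDLP6, which encodes a protein of the plasmodesmata, had H4ac of 8.95 and 14.8 in *axe1-5*, against 4.96 and 4.95 in WT (0.91 ± 0.19, limma adjusted p = 0.011), and H3K27me3 in WT replicate 2 alone.

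AT3G12460, a ribonuclease H-like gene with its H3K27me3 summit in the neighbour AT3G12450, also rose (0.98 ± 0.19, limma adjusted p = 0.0042). The other 8 comprised 2 factor genes, the AT-hook gene AT4G22810 and the Dof gene AT2G34140, the F-box gene AT3G18320, the loci AT4G09480, AT5G05305, AT3G06435 and AT3G58875, whose function is not annotated, and 1 region with its H4ac summit outside genes. At AT3G58875 the H4ac summit also lay in the overlapping SADHU10-1, a Sadhu element, and at AT3G06435 it also lay in AT3G06436. Their log2 changes ran from 0.77 upwards. AT4G22810 had H4ac of 5.34 and 9.29 in *axe1-5*, against 2.75 and 3.57 in WT, and kept H3K27me3 in all 7 libraries. Of the 13, 9 were same-gene and 2 were different-gene regions.

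The same 13 regions were then read in the MeJA libraries, which the comparison of *axe1-5* with WT did not set against each other. At 13 of 13, both *axe1-5* +MeJA libraries were above both WT +MeJA libraries after centring, as were 47 of the 54 other H4ac regions called higher in *axe1-5* (87.0%), 38.6% of the 425 regions with both marks and 24.6% of all regions tested. Among the same-gene regions the share was 57.9% (95 of 164). The order of the genotypes at the 13 regions was therefore the same on both plates, as it was at most other called regions, and it was not tested with a model in the MeJA libraries.

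**Figure D5:**
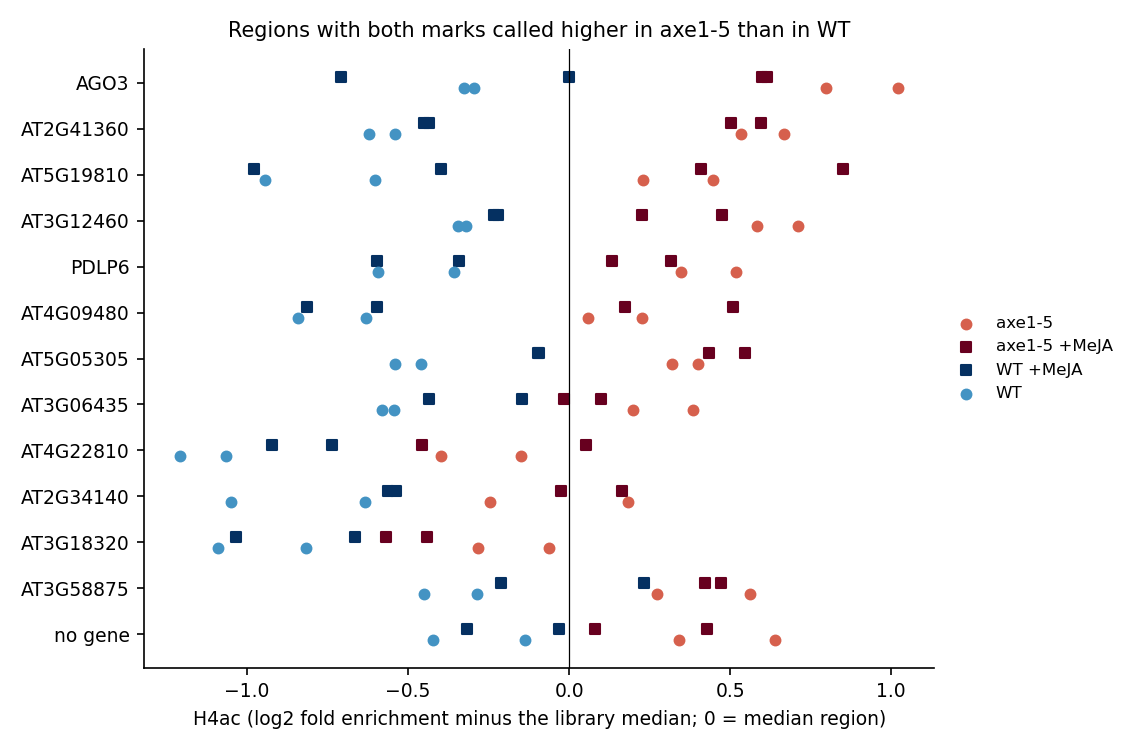
H4ac in each of the 8 libraries (log2 fold enrichment minus the library median, where 0 is the median region) at the 13 regions called higher in *axe1-5* than in WT, ordered by adjusted p. Circles are libraries without MeJA and squares are MeJA libraries; at every region both *axe1-5* circles lie to the right of both WT circles, and both *axe1-5* +MeJA squares lie to the right of both WT +MeJA squares.

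H4ac in *axe1-5* also differed by layout and by how many *axe1-5* libraries had an H3K27me3 peak. The median log2 change in *axe1-5* against WT was 0.19 over 164 same-gene regions, of which 74.4% were above 0, and -0.03 over 214 different-gene regions, of which 46.7% were. It was 0.25 over the 23 tested regions with no H3K27me3 peak in any *axe1-5* library, 20 of them above 0, 0.10 over 77 regions with a peak in 1 or 2, 0.01 over 185 with a peak in 3, and 0.06 over the 140 with a peak in all 4. Tested or not, 25 regions had no H3K27me3 peak in any *axe1-5* library. At 23 of these 25 the peak was called in WT replicate 2 alone, among them AT5G19810, PDLP6 and AT3G06435. Absence in *axe1-5* therefore did not set them apart from WT replicate 1 or WT +MeJA. Of the 13 regions that rose, 4 had H3K27me3 in no *axe1-5* library: AGO3, AT5G19810, PDLP6 and AT3G06435. They were 4 of the 23 tested regions of that kind, against 1 of 77 with H3K27me3 in 1 or 2 *axe1-5* libraries, 3 of 185 with it in 3, and 5 of 140 with it in all 4, so the calls did not fall steadily with recurrence. Layout, H4ac level in WT and recurrence of H3K27me3 moved together, and their parts in the change were not tested.

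MeJA changed H4ac at none of the 425 regions by the test. In WT +MeJA against WT, 0 regions passed, where 0.0438% of all regions tested did, and 38 (8.94%) had an unadjusted p under 0.05 against 8.80% of all regions. The lowest adjusted p, ahead of JAZ10, was at PUB23, a U-box ubiquitin ligase gene, with H4ac of 11.5 and 12.2 in WT +MeJA and 3.52 and 5.11 in WT (0.81 ± 0.19, limma adjusted p = 0.13). TCP15 had 7.73 and 10.98 in WT +MeJA, against 3.87 and 3.05 in WT (0.75 ± 0.21, limma adjusted p = 0.29). At PUB23, JAZ10 and TCP15 both MeJA values were above both WT values as deposited. The medians of the WT +MeJA libraries were 0.68 higher on the log2 scale than those of WT over all regions tested, and without centring 140 of the 425 regions, among 2782 of all, passed as higher in WT +MeJA.

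In *axe1-5* +MeJA against *axe1-5*, 0 of 425 regions passed, where 0.208% of all regions tested did, and 47 (11.1%) had an unadjusted p under 0.05 against 10.9% of all. The lowest adjusted p belonged to JMJ18, a histone demethylase gene whose H4ac summit also lay in the overlapping AT1G30800 (0.80 ± 0.20, limma adjusted p = 0.088), followed by SHR (0.72 ± 0.19, limma adjusted p = 0.11). At SHR H4ac was 8.61 and 8.86 in *axe1-5* +MeJA, against 3.47 and 5.54 in *axe1-5*. AOC4 had 8.30 and 10.2 in *axe1-5* +MeJA, against 8.84 and 15.2 in *axe1-5* (-0.61 ± 0.19, limma adjusted p = 0.19). No region passed a test of whether the MeJA difference itself differed between *axe1-5* and WT, and 35 of 425 (8.24%) had an unadjusted p under 0.05 against 8.29% of all.

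H3K27me3 levels could be tested only at the 1033 peaks of WT replicate 2 that were found in all 7 libraries, 111 of which touched the regions. In WT +MeJA against WT, 0 of the 111 passed, where 0.0968% of all peaks tested did. The median of the WT +MeJA library was 0.68 higher on the log2 scale than those of WT, and without centring 36 of the 111, among 319 of all 1033, passed as higher in WT +MeJA. In *axe1-5* against WT and in *axe1-5* +MeJA against *axe1-5*, 0 of 111 passed, where 0.0% of all peaks tested did in each. The counts at an unadjusted p under 0.05 were 9, 6 and 2 of 111 (8.11, 5.41 and 1.8%), against 13.3, 6.97 and 3.29% of all peaks tested. These peaks had to be present in every library, so a complete loss of H3K27me3 could not enter the test.

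Named genes were among the tested peaks. LRP1, expressed in lateral root primordia, had H3K27me3 of 41.7 in WT +MeJA and 10.7 and 16.2 in WT (0.98 ± 0.24 on the centred log2 scale, limma adjusted p = 0.090). SHR had the next lowest p in that comparison, 0.69 ± 0.24 (limma adjusted p = 0.24), and at both genes the WT +MeJA value was above both WT values. AHL20 had 8.51 and 8.39 in *axe1-5* +MeJA, against 13.7 and 19.7 in *axe1-5* (-0.58 ± 0.19, limma adjusted p = 0.998). The WT +MeJA value rests on 1 library of 577986 tags.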

How the data were processed

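Peak lists of 15 ChIP-Seq libraries were used, 8 for H4ac and 7 for H3K27me3. Per the submitters' processing notes, reads were trimmed with Trimmomatic 0.36.5, aligned with Bowtie to TAIR10, and peaks were called with MACS 1.4.2; the authors called each library separately against an input. The deposited tag count of a peak, its score (-10 times the log10 of the p-value), its fold enrichment (a ratio to the input) and its FDR in percent are the authors' MACS values. Fold enrichment depends on the depth of the library and its input, which bears on every level given here.

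Regions, overlaps (1 bp or more) and summits were computed from the lists. Where several peaks of a library overlapped a region, the highest fold enrichment was used, and the summit is that of the strongest peak. Genes, products and sequences came from the RefSeq annotation of TAIR10.1, whose nuclear chromosomes contain all listed peaks, and a gene was assigned where it held the summit. Log2 fold enrichment, centred on the library median, was fitted in limma 3.58.1 (R 4.3.3) over all shared regions with a peak in every library, with 4 condition means, and p-values were adjusted by Benjamini-Hochberg over all of them; the script was tested on simulated data. With 2 against 2 samples an exact permutation test cannot go below 0.333, so none was used. Correlations between same-numbered libraries did not pair the samples, and no block was fitted in the reported tests.

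The regions and the gene lists were chosen with earlier results of these data known. Genes named are the 12 regions of highest joint level with H3K27me3 in both WT libraries (described with 3 examples), at most 4 called per direction and comparison, the 3 regions at each end of the overlap, regions with H3K27me3 in both WT libraries and in no *axe1-5* library, and list members; others, such as the AT-hook genes, the G-box genes and the lowest p-values that did not pass, were chosen after their values were seen. Motifs were searched on both strands within 150 bases of the summit. Alternatives were other overlap rules, a minimum score of 100, a maximum FDR of 5%, other summits, no centring, a 2-fold rule and the omission of each library. Wilson intervals (95%) cover counting error only. Calculations used Python 3.11.15, pandas 2.3.3 and scipy 1.17.1.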

Additional observations from a re-analysis of the deposited data

How the results depend on the processing

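The number of regions depended on the rule. It was 76 with an overlap of at least 0.5 of the H4ac peak, 144 with the H4ac summit inside the H3K27me3 peak, 250 with a minimum score of 100, 158 with H3K27me3 replicate 1 in place of replicate 2, 141 with H3K27me3 in both replicates, and 635 without H4ac replicate 2. The median summit distance was 710 bp with H3K27me3 replicate 1, and the median H4ac length was 1446 bp in replicate 2. The share with both summits in the same gene was 53.9% with the H3K27me3 summit of replicate 1 and 91.7% where the H4ac summit lay inside the H3K27me3 peak, both chosen after seeing the data. Within 250 bases, 18.9% of regions had a telobox, 8.54% a G-box and 59.1% a GAGA motif.

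Peak recovery moved most for H3K27me3. For WT replicate 1 it was 0.407% with an overlap of at least 0.5 of the region, 9.55% with a minimum score of 100, 23.8% with the summit inside the region and 45.1% where the H4ac summit lay inside the H3K27me3 peak. For WT +MeJA the overlap, score and H4ac summit settings gave 0.203, 4.07 and 29.2%. For both *axe1-5* +MeJA libraries the overlap and the summit setting gave 14.0 and 29.9%. With 1 library left out, the share ranged over 33.5 to 89.6% in *axe1-5* and 79.5 to 92.1% in *axe1-5* +MeJA. For H4ac, WT +MeJA gave 97.0, 91.5, 97.2 and 94.4% under the 4 settings, a minimum score of 100 gave 74.6% in *axe1-5* and 73.0% in *axe1-5* +MeJA, and with 1 library left out the shares were 98.4 to 98.6% for WT +MeJA, 94.5 to 99.0% for *axe1-5*, and 90.9 to 97.6% for *axe1-5* +MeJA.

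The 13 H4ac calls in *axe1-5* against WT, all higher, were 6 higher without centring, 5 with a minimum score of 100, and 1 to 14 with 1 library left out. Over all regions tested, 37 of 9133 rose without centring, and 30 of 5790 rose and 6 fell with that score. With 1 library left out, 12 to 79 of all regions rose and 1 to 14 fell. The 2-fold rules, in every matched replicate, ran over all 492 H4ac regions or 524 H3K27me3 peaks and are another set of calls, in which an absent peak counts as lower; for H3K27me3 in WT +MeJA they rest on replicate 2 alone. After division by the list median they gave 6 for H4ac in *axe1-5* against WT, 3 higher and 3 lower, where 11 of all 11062 regions were higher and 110 lower. For WT +MeJA against WT, H4ac calls were 140 of 425 without centring, all higher, 17 by the 2-fold rule as deposited, 14 higher and 3 lower, and 3 after division by the median, all lower. Over all regions, 2782 of 9133 were called without centring, all higher. The 2-fold rule gave 288 higher and 13 lower of 11062 as deposited, and 2 higher and 14 lower after division. The H3K27me3 calls in WT +MeJA against WT were 36 of 111 without centring, all higher, 394 of 524 by the 2-fold rule, 20 higher and 374 lower, and 375 after division, all lower. Over all peaks, 319 of 1033 were called without centring, all higher. The 2-fold rule gave 325 higher and 5605 lower of 7023 as deposited, and 5666 after division, all lower. For *axe1-5* +MeJA against *axe1-5*, both 2-fold rules gave 4 for H4ac, 2 higher and 2 lower, and 6 for H3K27me3, all higher. Over all 11062 H4ac regions they gave 46 higher as deposited and 27 higher after division, with 207 lower in each. Over all 7023 H3K27me3 peaks they gave 50 higher and 28 lower as deposited, and 53 higher and 4 lower after division. Leaving out 1 library gave 0 to 1 for H4ac, where 1 to 21 of all regions rose and 0 to 14 fell. For H3K27me3 in *axe1-5* against WT the 2-fold rules gave 10, 1 higher and 9 lower, and 5 after division, all lower. Over all 7023 peaks these were 19 higher and 63 lower, and 3 higher and 28 lower. Leaving out 1 library gave 0 in the other comparisons. The cause of these shifts was not tested.

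With the replicate number as a block there were 12 calls for H4ac in *axe1-5* against WT, all higher, where 61 of all 9133 regions rose and 9 fell. There were 0 calls in each other comparison. Same-numbered H4ac libraries correlated at -0.045 to 0.025 and H3K27me3 libraries at -0.246 to -0.002 in their deviations, and a block with the *axe1-5* H3K27me3 numbers crossed, added after seeing the data, gave 0 calls.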
